A study of Mus musculus with 12 samples.

Results

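The genes described here are 40 factors of ribosome production in the nucleolus, out of 13859 genes tested on the arrays. They were chosen by name and function, as subunits of RNA polymerase I, proteins of the small nucleolar ribonucleoproteins (snoRNPs), and assembly factors of the small (40S) and large (60S) ribosomal subunits, with no threshold on a measured value. The choice was made with earlier results of these data known, so shares of members set beside all genes are descriptive. All 40 had at least 1 probe on the array, all were well above background on all 12 arrays, and 15 had several probes. RNA came from cultures of RAW264.7, a mouse macrophage line made from a tumour induced by Abelson leukemia virus, and was hybridised to Agilent 1-colour arrays. The 4 groups of 3 arrays are named NS, HS, NS + LPS and HS + LPS. The HS groups had 40 mM NaCl added to the medium, the LPS groups received 10 ng/ml lipopolysaccharide, the bacterial cell wall component sensed by TLR4, and all were exposed for 24 h. The labels do not spell out NS and HS, and they do not say whether the 3 arrays of a group came from separate cultures, so p-values measure the spread between these arrays, which may be technical.

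Ribosome production starts in the nucleolus, where RNA polymerase I copies the ribosomal DNA into a long precursor RNA. Box C/D and box H/ACA snoRNPs then methylate and pseudouridylate that RNA at chosen sites, while large assemblies of proteins cut it and fold it into the precursors of the small and large subunits. Many genes of this pathway carry the E-box CACGTG near their start and are known targets of the transcription factor MYC, and proliferating cells express them at high levels.

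The E-box CACGTG was searched in the promoter windows of RefSeq (mouse build GRCm38.p6), which run from 250 bases before to 50 bases after the start of each gene. The motif is its own reverse complement, so both strands are searched at once. It was found in 8 of the 35 members that the promoter table holds (22.9%) and in 8.09% of all 27025 genes of the table. Fbl, Npm1, Rrp12, Rrs1 and Bop1 were not in the table. The stretches around the 8 motifs are printed because they are the only sequence feature of these genes examined against the array values. They run 5′ to 3′ on the strand of the gene, with the motif in capitals, and stop early where the window ends. The first base of the motif lay at position -60 from the start in Nop2 and at positions 3 to 41 in the other genes.
Ltv1 (chr10:13193092-13193121, minus strand): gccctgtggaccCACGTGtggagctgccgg
Mybbp1a (chr11:72441355-72441376, plus strand): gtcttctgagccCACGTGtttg
Nop2 (chr6:125131811-125131840, plus strand): gtgtccctggatCACGTGtgttccggtgcc
Pes1 (chr11:3963965-3963994, plus strand): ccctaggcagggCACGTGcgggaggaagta
Pno1 (chr11:17211540-17211564, minus strand): tgtacaaccacgCACGTGttcctct
Tsr1 (chr11:74898092-74898121, plus strand): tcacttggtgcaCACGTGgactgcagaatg
Utp20 (chr10:88826765-88826789, minus strand): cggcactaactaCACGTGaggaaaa
Wdr43 (chr17:71616220-71616249, plus strand): cgcccgggcgaaCACGTGgctgccgcggag

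Levels are given throughout as the processed signal of a gene's brightest probe divided by the 75th percentile of its array. Differences are log2 differences between group means, with the standard error (SE) of a limma fit to all 12 arrays and a p-value adjusted by Benjamini-Hochberg over the 13859 genes. A gene was called higher or lower at an adjusted p under 0.05. The 75th percentile itself was 725 ± 74.0 in NS, 634 ± 21.5 in HS, 628 ± 6.84 with LPS alone and 428 ± 15.3 with both (arbitrary intensity units, SD, n = 3). Probes well above background made up 50.1%, 48.8%, 47.8% and 44.2% of all probes in those groups. NS, HS and NS + LPS replicates 1 and 2 lay on a shared slide, NS + LPS replicate 3 on another slide of the same scan day, and the 3 HS + LPS arrays on a slide of their own with a later scan day. In any difference with HS + LPS, group, slide and scan day cannot be told apart. Of 9 macrophage markers measured, 8 were well above background on all 12 arrays and Mertk on none. Their summed level ran from 814 to 853 on NS arrays, 823 to 916 on HS arrays, 847 to 890 with LPS and 1032 to 1084 with both, while markers of B cells, fibroblasts and epithelial cells summed to at most 0.344 on any array. Single macrophage markers moved in different directions under that sum. Between NS and HS + LPS the mean of Adgre1 went from 13.6 to 6.87 and that of Cd68 from 226 to 153. Cd14 went from 126 to 290 and Lyz2 from 84.0 to 153. Cd3e and Cd4 of 4 T cell markers, and Kdr and Pecam1 of 3 endothelial markers, were above background on all arrays, with sums of 2.30 to 3.01 and 2.56 to 3.62. The part of these shifts in the results was not tested. Since each array measured the RNA of a whole culture, a gene expressed by fewer cells and a gene expressed at a lower level in each cell cannot be told apart.

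Added NaCl alone raised most of the nucleolar genes by a small amount. Between HS and NS, 25 of the 40 members rose and 1, Pes1, fell, where 18.2% of all genes tested were called higher and 18.8% lower. The median difference of the members was 0.20, and 38 of them were above 0, beside a median of 0.02 over all genes. In 28 members the 3 HS arrays all lay above the 3 NS arrays, a separation seen in 25.8% of all genes, and in 1 they all lay below (24.7% of all genes). The rises were narrow in size, up to 0.37 for Polr1b, and no member that rose reached a fold of 1.5. The median level of the members on the log2 scale was 4.54 to 4.59 on the NS arrays and 4.77 to 4.86 on the HS arrays. Under the other background corrections, scalings, probe rules and filters the median difference stayed above 0, between 0.17 and 0.20. When single arrays were left out it was 0.17 to 0.22, and 19 to 26 members were called higher. The shared slide alone gave 24 higher and 1 lower. Of the single calls, that of Utp20 was lost under 11 of 18 alternatives, Bysl under 7, Polr1a and Dkc1 under 6 each, Npm1 under 3, and Nolc1 and Gnl3 under 1 each. Some calls also turned on the probe read, among them those of Ncl, Ddx21, Npm1, Tsr1 and Pes1, where another probe did not pass the test. For Pes1 that probe gave 0.10. Another probe of Polr1a, Polr1b, Nolc1, Wdr43, Wdr12, Nip7 and Brix1 was called higher as well.

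**Figure D1:**
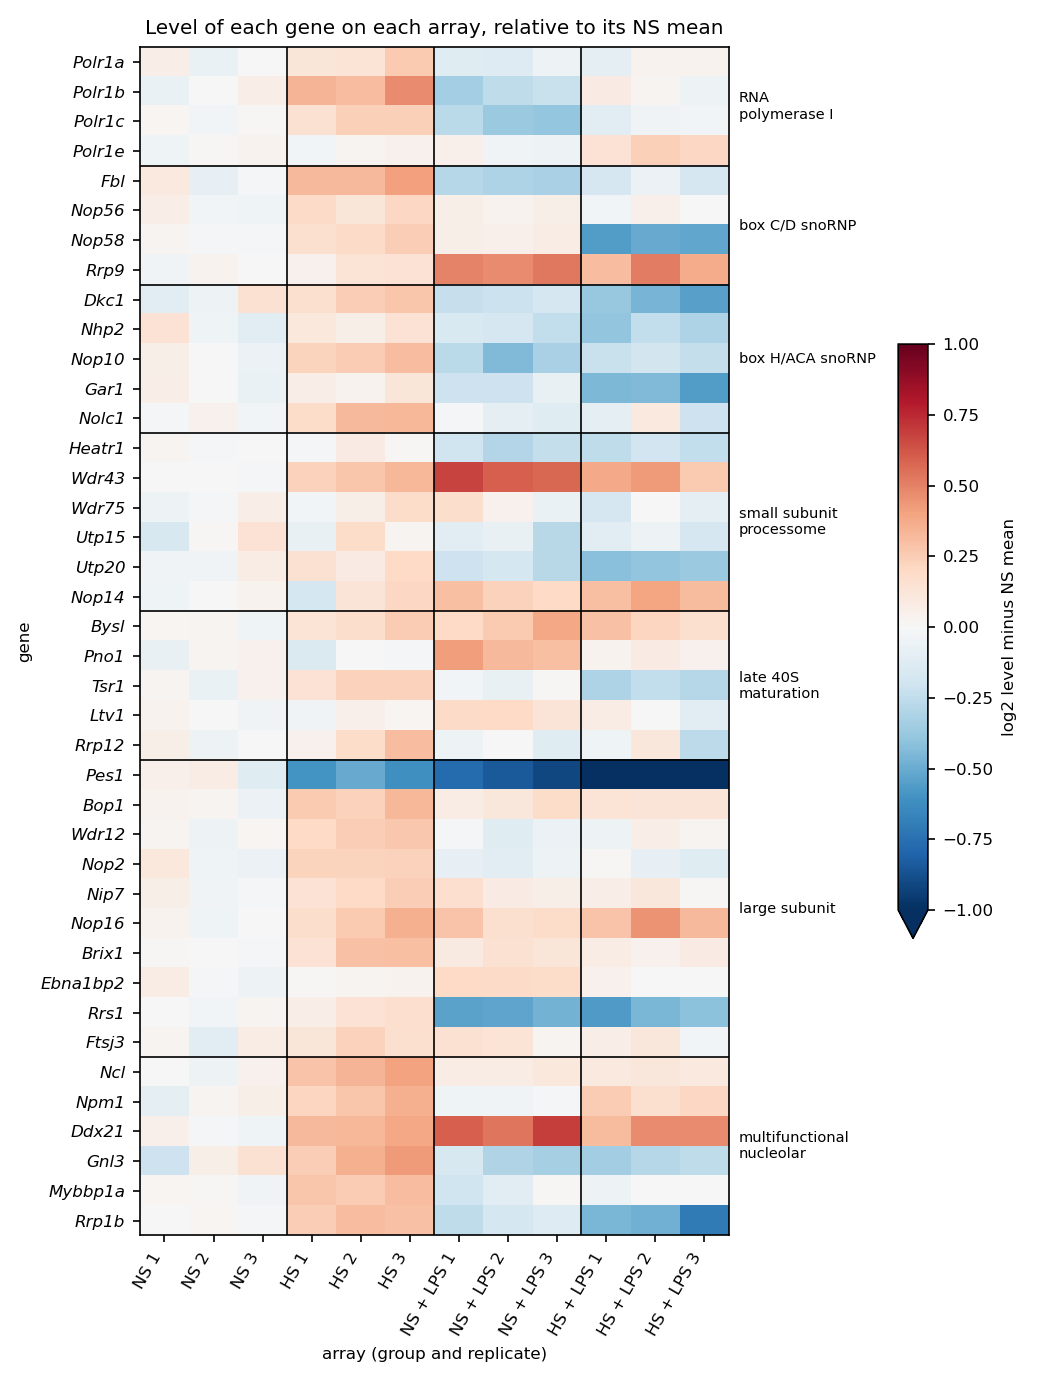
Level of each of the 40 genes on each of the 12 arrays, as the log2 level minus the mean of the 3 NS arrays of that gene, with genes in rows grouped by role and arrays in columns. Most rows are red in the HS columns, and Pes1 is blue in HS and in both LPS groups, beyond the end of the colour scale at -1 in HS + LPS.

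In cells that also received LPS the members showed no upward shift with salt. Group, slide and scan day cannot be told apart in this comparison. Between HS + LPS and NS + LPS, 5 members rose and 12 fell, where 26.2% of all genes were called higher and 31.4% lower, so both shares of members lay below or near the background. The median difference was -0.03 over the members and -0.04 over all genes. All 3 HS + LPS arrays lay above all 3 NS + LPS arrays in 8 members (29.2% of all genes) and below them in 14 (35.1%). The 5 that rose were Polr1b, Polr1c, Polr1e, Fbl and Npm1. Of these calls, that of Npm1 was lost under 5 of 16 alternatives, Fbl under 2 and Polr1e under 1. Among the falls, the call of Ddx21 was lost under 5. In the test of the difference between the salt effects with and without LPS (the interaction), 18 members were called lower and 1, Polr1e, higher, where the background was 18.8% lower and 17.4% higher. The median interaction was -0.21 over the members, 37 of which were below 0, and -0.03 over all genes. With quantile normalization 14 members were called lower and 1 higher, with a median of -0.16, while the calls over all genes moved from 2406 higher and 2610 lower to 3059 higher and 2198 lower. Of the 21 alternatives run, 14 ended the interaction call of Gnl3, 13 those of Bysl and Nop2, 12 that of Polr1e, 10 that of Pno1 and 7 that of Nip7, and 1 each ended those of Nop56, Brix1 and Ebna1bp2.

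**Figure D2:**
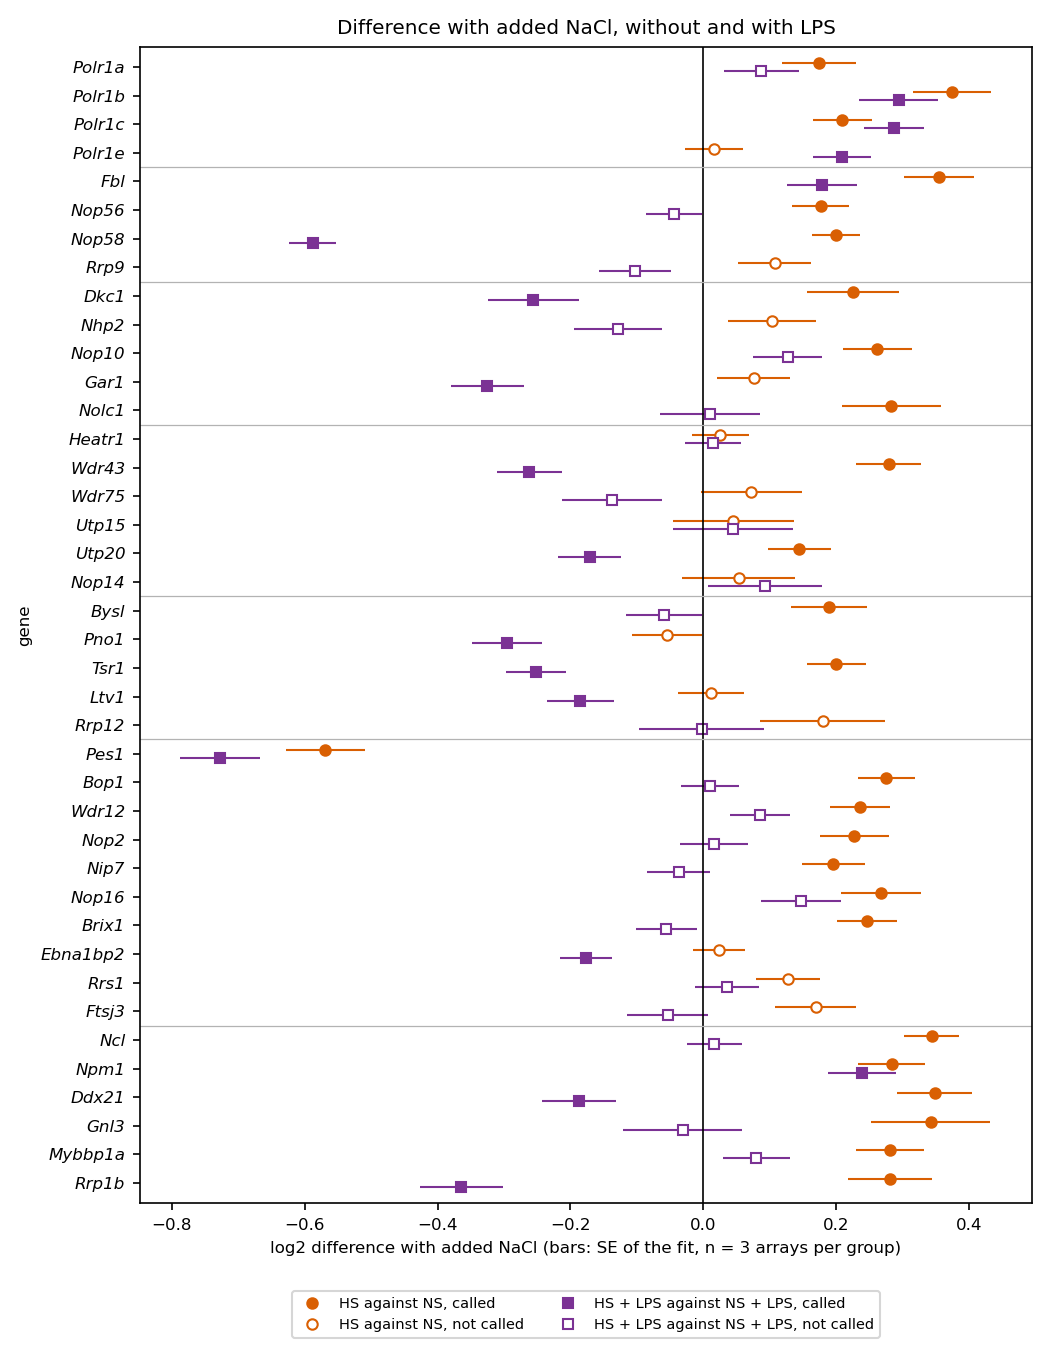
Log2 difference with added NaCl for each gene, without LPS (circles, HS against NS) and with LPS (squares, HS + LPS against NS + LPS), with bars for the SE and filled symbols for called genes. The circles lie right of 0 for 38 genes, while the squares scatter to both sides and reach -0.73 for Pes1 and -0.59 for Nop58.

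In medium without added NaCl the members' LPS calls in either direction were near the share over all genes. Between NS + LPS and NS, 11 members rose and 13 fell (27.5% and 32.5%), where 28.6% of all genes were called higher and 35.1% lower. The median difference was -0.05 over the members and -0.03 over all genes. All NS + LPS arrays lay above all NS arrays in 14 members (31.6% of all genes) and below them in 12 (38%). In medium with added NaCl the balance was on the lower side, with 3 members called higher and 26 lower between HS + LPS and HS, against 30.5% higher and 41.8% lower over all genes. Here the median was -0.23 over the members and -0.11 over all genes, and the HS + LPS arrays lay above the HS arrays in 4 members (31.9% of all genes) and below them in 26 (43%). The 2 salt comparisons and the 2 LPS comparisons share groups with each other, so their values are given side by side and are not independent of each other. Within the shared slide, 8 members rose and 12 fell between NS + LPS and NS. Without NS + LPS replicate 2, 8 members instead of 13 were called lower in that comparison. Of its single calls, that of Brix1 was lost under 13 of 18 alternatives, Bop1 under 10 and Gnl3 under 8. Nhp2 and Nop14 lost theirs under 7 each, Gar1 and Rrp1b under 6 each, and Dkc1 under 4. Wdr43, Utp20, Ebna1bp2 and Ddx21 lost theirs under 1 each. The direction of several single members in the LPS comparisons depended on which probe of the gene was read, as described with the probe pairs further on.

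**Figure D3:**
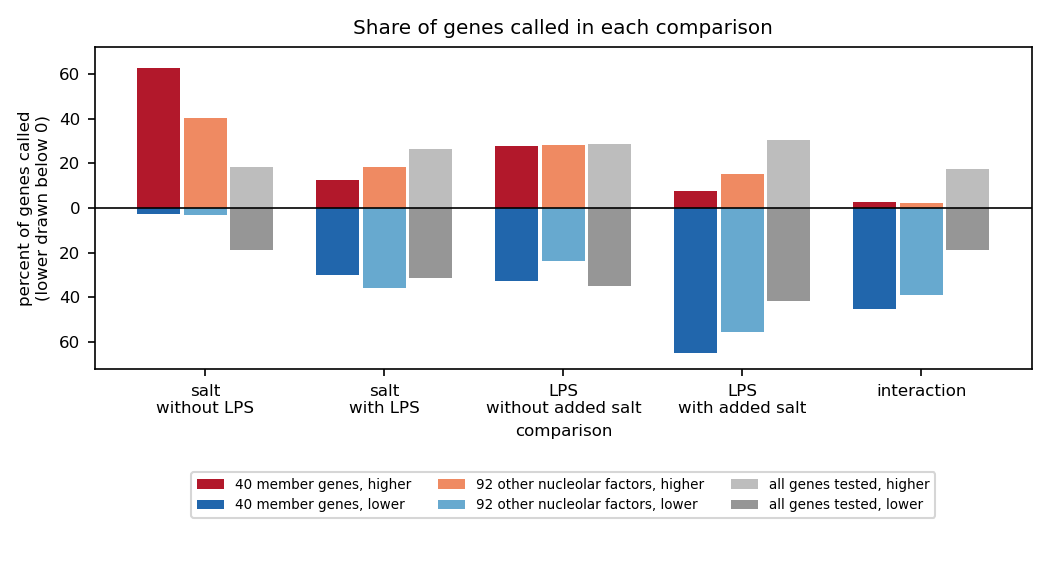
Percent of genes called higher (above 0) and lower (below 0) in each of the 5 comparisons, for the 40 members, for 92 other nucleolar factors and for all 13859 genes tested. The members' bar for higher calls reaches 62.5% for salt without LPS, and their bar for lower calls reaches 65% for LPS with added salt.

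RNA polymerase I is the enzyme that transcribes the ribosomal DNA, and 3 of its 4 subunits measured here rose with salt in each of the salt comparisons (beside 18.2% and 26.2% of all genes). Polr1b, the second-largest catalytic subunit, stood at 5.31, 5.53 and 5.81 on the NS arrays, 7.02, 6.85 and 7.71 on the HS arrays, 4.39, 4.64 and 4.74 with LPS and 5.86, 5.66 and 5.35 with both. HS arrays were the highest and NS + LPS arrays the lowest, with no overlap between either pair of salt groups. The salt difference of Polr1b was 0.37 without LPS (SE 0.059, adjusted p = 0.000808) and 0.29 with LPS (SE 0.059, adjusted p = 0.00191). Another Polr1b probe gave 0.59 (adjusted p = 0.00380) and 0.07 (adjusted p = 0.619), adjusted over all probes that passed the filter, as are all p-values given for another probe. The LPS differences of the brightest probe were -0.27 without and -0.35 with added NaCl, both called lower. Polr1c, a subunit shared with RNA polymerase III, was at 27.7, 26.9 and 27.7 on the NS arrays, 30.5, 32.3 and 32.3 on the HS arrays, 22.7, 21.3 and 21.0 on the NS + LPS arrays and 25.5, 26.8 and 27.0 on the HS + LPS arrays. It too was highest in HS and lowest in NS + LPS, with salt differences of 0.21 (adjusted p = 0.00471) and 0.29 (adjusted p = 0.000393).

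Polr1e, a subunit that helps the polymerase engage its initiation factors, was the one member with an interaction above 0 that passed the test. Its levels were 4.41, 4.59 and 4.66 without treatment, 4.48, 4.63 and 4.69 with salt, 4.71, 4.45 and 4.39 with LPS and 5.02, 5.36 and 5.26 with both. The first 3 groups overlapped and the HS + LPS arrays lay above them all, with a salt difference of 0.21 under LPS (adjusted p = 0.00240) and an interaction of 0.19 (adjusted p = 0.0335). The other Polr1e probe gave -0.09 for salt under LPS (adjusted p = 0.238) and an interaction of -0.11 (adjusted p = 0.319), so both calls turn on which probe is read. In the probe pair fit described further on, that probe was lower relative to the brighter one in HS + LPS than in NS + LPS (-0.29, adjusted p = 0.00570). Polr1a, the largest catalytic subunit, rose by 0.17 with salt alone (adjusted p = 0.0339), while its difference with LPS present was 0.09 (adjusted p = 0.208). The other Polr1a probe gave 0.15 (adjusted p = 0.0245) with salt alone, and it fell with salt under LPS (-0.26, adjusted p = 0.000798), with an interaction of -0.41 (adjusted p = 0.00105).

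The box C/D snoRNP proteins, which guide methylation of the ribosomal RNA, split under LPS. Fbl, the methyltransferase fibrillarin, was at 23.1, 20.5 and 21.3 on the NS arrays, 27.1, 27.0 and 28.7 on the HS arrays, 17.7, 17.4 and 17.2 on the NS + LPS arrays and 19.2, 20.8 and 19.2 on the HS + LPS arrays. HS arrays lay above all others and NS + LPS arrays below all others. Its salt difference was 0.35 without LPS (SE 0.053, adjusted p = 0.000555) and 0.18 with LPS (adjusted p = 0.0149), the latter call lost under 2 of 16 alternatives. Fbl was lower with LPS in both media. Nop58, a core scaffold protein of the same particles, was at 25.1, 24.6 and 24.5 without treatment, 27.6, 28.3 and 29.3 with salt, 25.7, 25.6 and 26 with LPS and 16.8, 17.4 and 17.2 with both. The first 3 groups lay close together and the HS + LPS arrays, on a slide and scan day of their own, lay far below. The salt difference of Nop58 was 0.20 without LPS (adjusted p = 0.00163) and -0.59 between HS + LPS and NS + LPS (SE 0.035, adjusted p = 7.86e-07). The interaction of Nop58, -0.79 (SE 0.050, adjusted p = 5.72e-06), was the farthest from 0 among the 40 members.

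Rrp9, a protein specific to the U3 snoRNP that starts cleavage of the precursor RNA, was one of the members that rose with LPS. Its levels were 10.5, 11.0 and 10.72 on the NS arrays, 11.0, 11.8 and 11.9 on the HS arrays, 15.2, 14.9 and 15.5 on the NS + LPS arrays and 13.3, 15.3 and 13.9 on the HS + LPS arrays. Every array with LPS lay above every array without it, with LPS differences of 0.50 (adjusted p = 1.62e-05) and 0.29 (adjusted p = 0.000763). Nop56, the partner of Nop58, rose by 0.18 with salt alone (adjusted p = 0.00890). The brightest probe of Nop56 maps to chromosome X in the mm9 coordinates of the array files while the gene lies on chromosome 2, so that probe may read a related copy. The brightest Nop56 probe on chromosome 2 gave a salt difference of 0.20 without LPS (adjusted p = 0.00739) and of -0.21 with LPS (adjusted p = 0.00308), where the former probe gave -0.04 (adjusted p = 0.394).

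The box H/ACA group held proteins of the particles that carry out pseudouridylation and, with Dkc1, also stabilise telomerase RNA. It also held Nolc1, a chaperone of both snoRNP classes. The 5 genes of the group were called lower with LPS in all but 1 test. All 5 fell between HS + LPS and HS (41.8% of all genes), and 4 of 5 fell between NS + LPS and NS (35.1% of all genes), where the calls of Nhp2, Gar1 and Dkc1 were lost under 7, 6 and 4 of 18 alternatives. Nop10, a small structural protein of the particle, was at 47.8, 46.2 and 44.1 without treatment, 53.7, 54.8 and 56.9 with salt, 38.2, 33.9 and 36.8 with LPS and 39.3, 40.5 and 38.9 with both. The 2 groups without LPS lay above the 2 groups with LPS, and HS lay above NS, with a salt difference of 0.26 (adjusted p = 0.00301) and LPS differences of -0.34 and -0.48. Gar1, which contacts the substrate RNA and Dkc1, was at 64.5, 61.4 and 58.8 on the NS arrays, 64.6, 63.1 and 66.9 on the HS arrays, 53.3, 53.4 and 58.6 on the NS + LPS arrays and 45.0, 45.2 and 41.7 on the HS + LPS arrays. NS and HS overlapped and HS + LPS lay below all other arrays, so the salt difference of Gar1 was 0.08 without LPS (adjusted p = 0.310) and -0.32 with LPS (adjusted p = 0.000652).

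Nolc1, the nucleolar chaperone of both snoRNP classes, was at 59.7, 62.3 and 59.3 without treatment, 68.8, 75.7 and 76.2 with salt, 59.97, 56.5 and 55.6 with LPS and 56.7, 64.8 and 52.4 with both. HS arrays lay above all others, and the other 3 groups overlapped in part, with a salt difference of 0.28 without LPS (adjusted p = 0.0140) and 0.01 with LPS (adjusted p = 0.920). Dkc1, the pseudouridine synthase, had a level of 1.83 ± 0.174 in NS, 2.13 ± 0.0878 in HS, 1.58 ± 0.0348 with LPS and 1.32 ± 0.0755 with both (SD, n = 3). It rose with salt alone, the call lost under 6 of 18 alternatives, and fell with salt under LPS, with an interaction of -0.48 (adjusted p = 0.00412). Nhp2, the fourth core protein, fell in both LPS comparisons (-0.19 and -0.42) and had salt differences of 0.10 and -0.13 that did not pass the test.

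**Figure D4:**
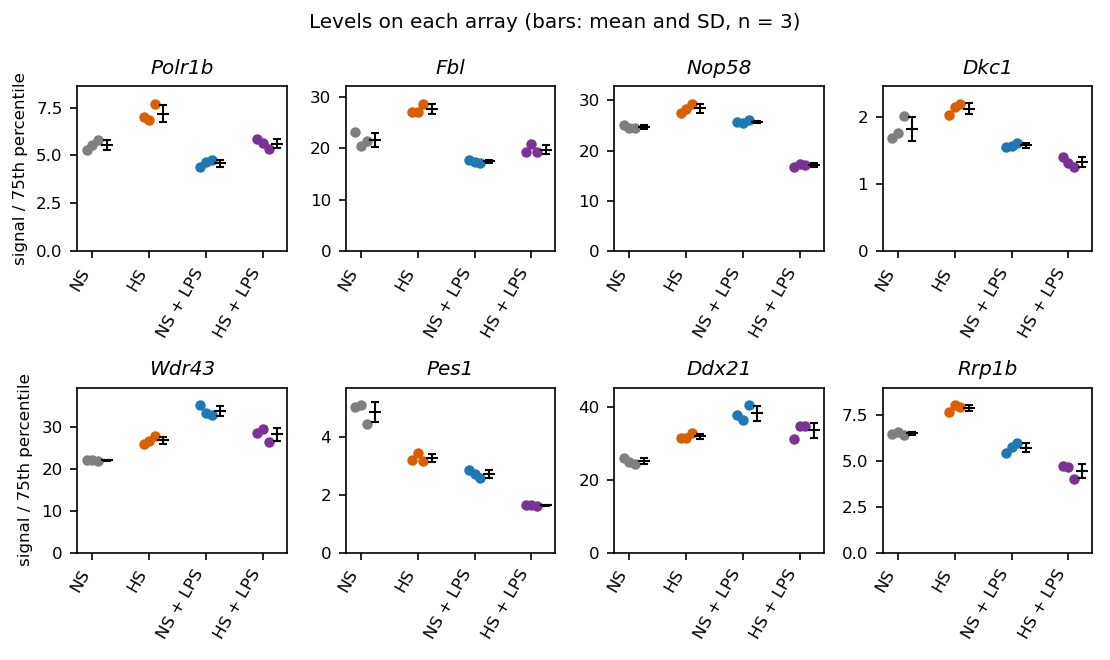
Level of 8 of the genes on each array, as signal divided by the 75th percentile of the array, with points for arrays and bars for the mean and SD of each group (n = 3). HS points lie above NS points for every gene shown except Pes1, and the HS + LPS points are the lowest for Nop58, Dkc1, Pes1 and Rrp1b.

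The small subunit processome, the large assembly that forms on the nascent precursor RNA with the U3 snoRNP, was the role with the fewest salt calls for its size, 2 of 6 higher and 0 lower between HS and NS (18.2% and 18.8% of all genes). Wdr43, a WD-repeat protein of the complex that joins transcription to processing, was at 22.2, 22.2 and 22.0 on the NS arrays, 25.9, 26.9 and 27.8 on the HS arrays, 35.3, 33.6 and 33.0 on the NS + LPS arrays and 28.7, 29.7 and 26.6 on the HS + LPS arrays. At its brightest probe all 3 treated groups lay above NS, and NS + LPS was the highest. Wdr43 rose with salt by 0.28 (adjusted p = 0.00152) and with LPS by 0.62 (adjusted p = 1.31e-06). Between HS + LPS and NS + LPS, where slide and scan day also differed, the difference was -0.26, with an interaction of -0.54 (adjusted p = 0.000334). The other Wdr43 probe fell with LPS, with differences of -0.60 (adjusted p = 7.24e-06) without and -1.34 (adjusted p = 1.36e-08) with added NaCl. Nop14, a factor of the same assembly, was at 4.92, 5.08 and 5.20 without treatment, 4.47, 5.54 and 5.85 with salt, 6.23, 5.95 and 5.82 with LPS and 6.25, 6.64 and 6.30 with both. The HS arrays of Nop14 spread around the NS arrays, and its LPS differences were 0.24 (adjusted p = 0.0283) and 0.28 (adjusted p = 0.0121), calls lost under 7 of 18 and 2 of 16 alternatives.

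The other processome members moved less. Utp20, a very large scaffold protein, rose with salt alone by 0.14 (adjusted p = 0.0367), and fell in the other comparisons, with -0.54 between HS + LPS and HS (adjusted p = 2.57e-06). Heatr1, a scaffold needed for polymerase I transcription as well, fell in both LPS comparisons (-0.24 and -0.26), and its salt differences were 0.03 and 0.01. Wdr75 and Utp15, members of the same subcomplex as Wdr43, passed the test in none of the 5 comparisons, with salt differences of 0.07 and 0.05 without LPS (adjusted p = 0.499 and 0.733).

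The late 40S maturation factors, which bind the small subunit precursor and accompany it to the cytoplasm, included none that rose with salt under LPS (26.2% of all genes) and 3 of 5 that fell (31.4% of all genes). Pno1, an RNA-binding protein that shields the end of the precursor, was at 30.6, 32.9 and 33.2 on the NS arrays, 29.1, 32.1 and 32.0 on the HS arrays, 43.1, 40.4 and 39.7 on the NS + LPS arrays and 33.0, 34.1 and 33.3 on the HS + LPS arrays. NS + LPS lay above all other arrays and NS overlapped HS. Pno1 rose with LPS by 0.35 (adjusted p = 0.000180). Its difference between HS + LPS and NS + LPS, where slide and scan day also differed, was -0.30 (adjusted p = 0.000932). Tsr1, a GTPase-like factor, was at 8.25, 7.73 and 8.35 without treatment, 8.95, 9.49 and 9.49 with salt, 7.95, 7.71 and 8.19 with LPS and 6.54, 6.82 and 6.65 with both. HS arrays were the highest and HS + LPS arrays the lowest, with salt differences of 0.20 without LPS (adjusted p = 0.00584) and -0.25 with LPS (adjusted p = 0.000859). Bysl, a factor bound early to the precursor, rose with salt by 0.19, a call lost under 7 of 18 alternatives, and with LPS by 0.28. Ltv1, an export factor of the subunit, fell with salt under LPS (-0.19) and rose with LPS (0.17), and Rrp12, an export factor of both subunits, passed the test only between HS + LPS and HS, at -0.24 (adjusted p = 0.0387), a call lost under 8 of 16 alternatives, while its arrays overlapped.

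Among 10 factors of the large subunit, 6 rose with salt alone (18.2% of all genes) and none rose with salt under LPS (26.2%). Pes1, Bop1 and Wdr12 form the PeBoW complex, which is required to mature the large subunit RNAs, and they differed. Bop1 rose by 0.28 with salt (SE 0.043, adjusted p = 0.000809) and Wdr12 by 0.23 (SE 0.045, adjusted p = 0.00258). Pes1 was at 5.02, 5.09 and 4.44 on the NS arrays, 3.21, 3.42 and 3.17 on the HS arrays, 2.84, 2.70 and 2.57 on the NS + LPS arrays and 1.64, 1.64 and 1.62 on the HS + LPS arrays. Its 4 groups did not overlap and stepped down in that order, with salt differences of -0.57 (SE 0.060, adjusted p = 6.34e-05) and -0.73 (adjusted p = 5.51e-06) and LPS differences of -0.84 and -0.999. These values come from 1 of the probes of Pes1, and another probe of the gene gave a salt difference of 0.10 (SE 0.083, adjusted p = 0.405). The brightest Wdr12 probe maps to chromosome 7 in mm9 while the gene lies on chromosome 1, and the brightest Wdr12 probe on chromosome 1 gave 0.39 for salt without LPS (adjusted p = 4.46e-05) and -0.39 for LPS without added salt (adjusted p = 8.52e-06).

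Rrs1, which brings the 5S RNA particle into the large subunit precursor, was at 12.9, 12.7 and 13.2 without treatment, 13.6, 14.4 and 14.6 with salt, 8.95, 8.97 and 9.32 with LPS and 8.75, 9.43 and 9.75 with both. Arrays with LPS lay below all arrays without it, with LPS differences of -0.51 (adjusted p = 4.66e-06) and -0.61 (adjusted p = 1.10e-06), while salt differed by 0.13 (adjusted p = 0.0617) without LPS. Nop2, an RNA methyltransferase, Nip7, Nop16 and Brix1, assembly factors, rose with salt alone by 0.23, 0.20, 0.27 and 0.25. Ebna1bp2, an early assembly factor, had a salt difference of 0.02 without LPS (adjusted p = 0.679) and -0.18 with LPS (adjusted p = 0.00317). Ftsj3, another RNA methyltransferase, passed the test in none of the 5 comparisons, although its 3 HS arrays lay above its 3 NS arrays (0.17, adjusted p = 0.0540).

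The multifunctional nucleolar proteins were the role in which all 6 members rose with salt alone, by 0.28 to 0.35, where 18.2% of all genes rose. Npm1, the abundant histone and ribosome chaperone nucleophosmin, was at 204, 221 and 226 on the NS arrays, 252, 264 and 277 on the HS arrays, 211, 212 and 214 on the NS + LPS arrays and 259, 243 and 250 on the HS + LPS arrays. The salt groups lay above their controls with and without LPS, by 0.28 (adjusted p = 0.00171) and 0.24 (adjusted p = 0.00263), and NS overlapped NS + LPS. Both Npm1 calls were lost with quantile normalization, at 0.20 (adjusted p = 0.0587) and 0.15 (adjusted p = 0.112), and the call under LPS was lost under 5 of 16 alternatives, down to 0.04 (adjusted p = 0.540). Of the other 4 Npm1 probes, none passed the test with salt alone (0.10 to 0.22). With salt under LPS, 1 of them rose (0.27, adjusted p = 0.00184), 1 fell (-0.31, adjusted p = 0.000829) and the other two, at 0.08 and -0.08, did not pass the test. Ncl, nucleolin, which binds the precursor RNA and ribosomal DNA chromatin, rose with salt alone from 170 ± 5.92 to 216 ± 9.08 (SD, n = 3), a difference of 0.34 (adjusted p = 0.000148), and had a salt difference of 0.02 under LPS (adjusted p = 0.759). The other Ncl probe gave 0.13 with salt alone (adjusted p = 0.305) and fell with salt under LPS (-0.29, adjusted p = 0.0204).

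Ddx21, an RNA helicase that works with polymerases I and II, was at 26.1, 24.98 and 24.5 without treatment, 31.5, 31.7 and 32.9 with salt, 38.1, 36.5 and 40.6 with LPS and 31.4, 34.9 and 35.0 with both. NS was the lowest group and NS + LPS the highest, with a rise of 0.35 with salt (adjusted p = 0.000900), a rise of 0.61 with LPS (adjusted p = 4.11e-06) and an interaction of -0.53 (adjusted p = 0.000763). The other Ddx21 probe gave 0.02 with salt alone (adjusted p = 0.798) and fell with LPS (-0.74, adjusted p = 6.23e-07). Rrp1b, a nucleolar partner of protein phosphatase 1, was at 6.45, 6.58 and 6.42 on the NS arrays, 7.68, 8.03 and 7.93 on the HS arrays, 5.44, 5.75 and 5.94 on the NS + LPS arrays and 4.72, 4.64 and 3.98 on the HS + LPS arrays. Its 4 groups did not overlap, with HS on top and HS + LPS at the bottom, a salt difference of 0.28 without LPS (adjusted p = 0.00603) and of -0.36 with LPS (adjusted p = 0.000749). Gnl3, the GTP-binding protein nucleostemin, and Mybbp1a, a MYB-binding repressor found in the nucleolus, rose with salt alone by 0.34 and 0.28, and their differences under LPS were -0.03 and 0.08.

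The rest of the pathway was read from lists of other factors, with calls from the same fit. Over all genes, 18.2% were called higher and 18.8% lower with salt alone, 26.2% and 31.4% with salt under LPS, 17.4% and 18.8% in the interaction, and 28.6% and 35.1% between NS + LPS and NS. Of 92 other nucleolar factors (further polymerase I and initiation factors, small and large subunit factors, and snoRNP assembly factors), 37 rose and 3 fell with salt alone (40.2% and 3.26%), with a median of 0.11. The strongest were Mdn1, the AAA ATPase that strips factors from the large subunit, at 0.49 (adjusted p = 0.00439), and Utp4, a processome protein, at 0.43 (adjusted p = 0.000209). With salt under LPS, 17 rose and 33 fell (18.5% and 35.9%), and in the interaction 2 were called higher and 36 lower (2.17% and 39.1%), with a median of -0.15. The 30 ribosomal protein genes, the products that these factors assemble, had 6 higher calls with salt alone (20%, near the share over all genes) and 0 lower (median 0.13), and 17 higher and 1 lower with salt under LPS (56.7% and 3.33%, median 0.20). Probes for ribosomal proteins can read processed pseudogenes, so single values of that family are uncertain. Of 20 RNA polymerase III genes, which make the 5S RNA, 7 rose (35%) and 0 fell with salt alone. With salt under LPS, 9 of them rose (45%) and 2 fell (10%). Between NS + LPS and NS, 13 fell (65%) and 3 rose (15%). Of 12 RNA exosome genes, which trim the precursor ends, 4 rose (33.3%) and 1 fell (8.33%) with salt alone, and 7 fell (58.3%) and 1 rose (8.33%) with salt under LPS.

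Myc, the transcription factor for which many of these genes are targets, was lower with added NaCl in both salt comparisons and higher with LPS in both media. Its level was 0.0877, 0.0740 and 0.0873 in NS and 0.0502, 0.0321 and 0.0589 in HS, where replicate 2 was not well above background. It was 1.92, 1.97 and 2.01 in NS + LPS and 1.15, 1.13 and 1.06 in HS + LPS. Every array with LPS lay far above every array without it, and HS arrays lay below NS arrays, with LPS differences of 4.57 and 4.60 and salt differences of -0.86 (adjusted p = 0.00391) without and -0.83 (adjusted p = 0.00284) with LPS. Among the 8 members with the E-box printed above, 5 rose and 1 fell with salt alone (18.2% and 18.8% of all genes), with a median of 0.17, beside 0.20 in the members without it. With salt under LPS 0 rose and 6 fell (26.2% and 31.4% of all genes), with a median of -0.22, beside -0.04. In the interaction 0 were called higher and 5 lower (17.4% and 18.8% of all genes), and the medians lay close together, at -0.23 with the motif and -0.22 without it. With LPS in medium without added NaCl, 3 rose and 2 fell, near the 28.6% and 35.1% over all genes (median -0.05, beside -0.01). Of 10 MYC network genes tested, Myc included, Max rose and Myc, Mxd1 and Mxd3 fell with salt alone (18.2% and 18.8% of all genes). Between NS + LPS and NS, 3 rose and 3 fell (30% each), near the 28.6% and 35.1% over all genes. Mxd1, a repressor that competes with MYC for MAX, fell by 0.54 with salt alone (adjusted p = 0.000177) and rose by 1.76 with LPS (adjusted p = 4.78e-09).

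For 13 members the array held separate probes along the gene, so that an upstream and a downstream stretch could be compared within each array. The pair was the most upstream and the most downstream probe that passed the filter, both on the chromosome of the gene, and the downstream minus the upstream log2 level was fitted for 3401 such genes. Between NS + LPS and NS the downstream probe fell relative to the upstream probe in 9 of the 13 members and rose in 0, where 36.3% of the 3401 genes were called lower and 7.41% higher. The median of the members was -0.92, beside -0.13 over all pairs. Between HS + LPS and HS, 12 were called lower and 1, Polr1b, higher, where the background was 40.5% and 13.1%, with a median of -0.83 beside -0.16. With salt alone 2 of 13, Ddx21 and Pes1, were called lower (3.47% of all pairs) and 0 higher (2.71%). With salt under LPS 5 were called lower and 2 higher, against 12.7% and 13.6%.

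The first 30 bases of the 60-base probes of 3 genes, as the array files give them, are printed because the call for the gene turned on which of them was read. Coordinates are those of the whole probe in mm9 and no base is marked.
Ncl upstream (chr1:88247953-88248012, minus strand): ttaaaagaatcatttgagggctctgttcgt
Ncl downstream (chr1:88241516-88241575, minus strand): acttggacattaattaggaagaaactgcat
Ddx21 upstream (chr10:62044862-62044921, minus strand): ttgcatcgttttccaacatacttttagatt
Ddx21 downstream (chr10:62043317-62043376, minus strand): aaatgatctgtcataaaccaaacagtgaag
Pes1 upstream (chr11:3873303-3873362, plus strand): attcagttgtgccgtaggctcactgtggag
Pes1 downstream (chr11:3879948-3880007, plus strand): aagtatgtatggctcacacttccacattgt

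The upstream Ddx21 probe, which stood for the gene above, rose with LPS by 0.61, while the downstream probe, 1485 bases further on, was at 7.82, 7.95 and 8.53 in NS and 4.82, 4.92 and 4.85 in NS + LPS. The NS + LPS arrays of that probe lay below all NS arrays, with a difference of -0.74 (adjusted p = 6.23e-07). The downstream probe of Ncl, 6377 bases away, was at 0.867, 0.858 and 0.930 in NS and 0.420, 0.406 and 0.487 in NS + LPS, a difference of -1.02, where the upstream probe had 0.09. In Pes1 the downstream probe, 6585 bases away, gave the falls described above, while the upstream probe was at 2.47, 2.42 and 2.69 in NS, 2.39, 2.87 and 2.86 in HS and 2.51, 2.35 and 2.15 in NS + LPS, groups that overlapped. In HS + LPS the upstream probe was at 2.13, 2.31 and 2.14, below all HS arrays, and it too fell between HS + LPS and HS (-0.30, adjusted p = 0.00802). Nolc1 had the widest gap between its probes, with -0.08 upstream and -1.78 downstream for LPS without added NaCl over a distance of 400 bases. Wdr43 had 0.62 upstream and -0.60 downstream, Nip7 0.10 and -1.04, Brix1 0.12 and -0.80, and Ebna1bp2 0.23 and -1.10. The downstream probes of these genes were the dimmer ones. On NS replicate 1 the upstream and downstream levels were 59.7 and 2.52 for Nolc1, 22.2 and 9.91 for Wdr43, and 42.5 and 1.62 for Nip7. They were 16.65 and 0.441 for Brix1, and 16.1 and 0.702 for Ebna1bp2. When all probes of a gene were averaged, the LPS differences of Ddx21, Brix1 and Ebna1bp2 turned from above to below 0, and the median of the members for LPS with added salt moved from -0.23 to -0.43. For these genes the array gives a change in probe signal that differs along the gene, and which transcript each downstream probe reads was not tested.

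**Figure D5:**
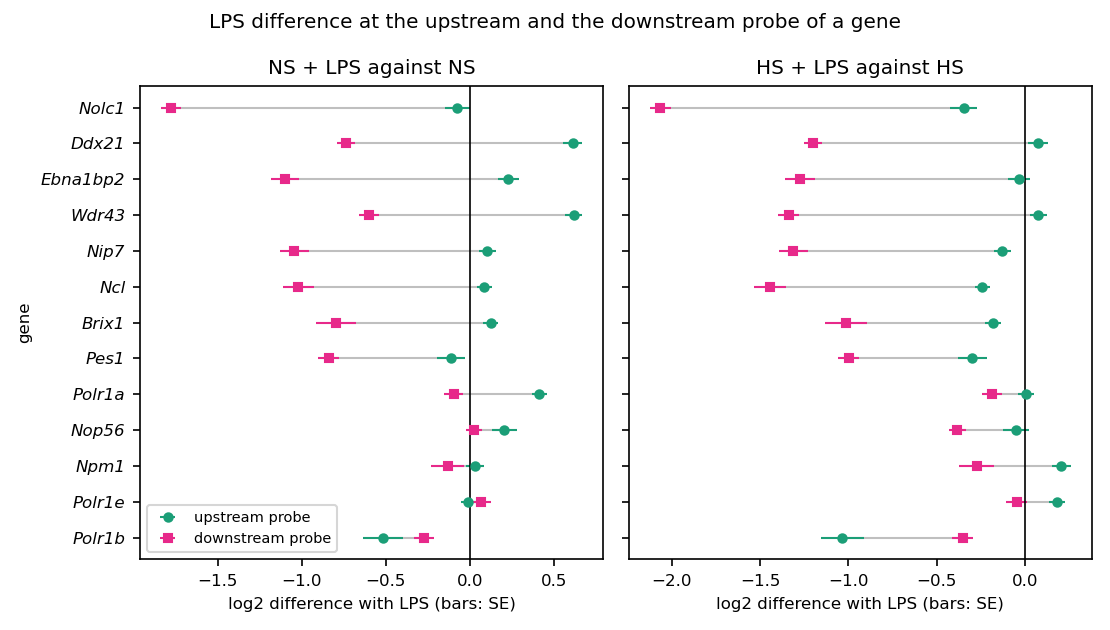
Log2 difference with LPS at the upstream probe (green circles) and the downstream probe (pink squares) of the 13 genes with a probe pair, without added NaCl (left) and with it (right), with bars for the SE. The square lies left of the circle for the genes from Nolc1 down to Nop56 in both panels, while Polr1b has its square to the right of its circle.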

How the data were processed

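Total RNA was labelled with Cy3 and hybridised to Agilent mouse arrays of design 028005, per the labels' protocols and the file headers. Per the file headers, Feature Extraction 10.7.3.1 subtracted the background and removed spatial trends, array by array, and wrote linear intensity values in arbitrary units. Marks for outliers, for saturation and for brightness over background are other values, coded 0 or 1 per the file headers. A deposited table of normalized intensity served as an alternative.

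Control spots (3671 of 62976) and flagged outliers were left out, spots of a probe were averaged, and log2 signal minus the 75th percentile of the array was taken. Probes had to be well above background on each of the 3 arrays of some group, and the brightest such probe represented its gene (13859 genes). Differences were fitted with lmFit and eBayes in limma 3.58.1 (R 4.3.3) over all 12 arrays, 2-sided, with Benjamini-Hochberg adjustment over all genes and a threshold of 0.05. The fit was tested on simulated data, in which 53% of 100 genes changed by a log2 difference of 0.3 and 71% of 100 changed by 0.5 were recovered for HS against NS among 13859 genes, with 5 false calls. The median SE of a difference was 0.066.

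The members, the role groups and the lists of other factors were chosen with earlier results of these data known. Values on each array are given for the up to 3 called members with the largest rise and fall in each comparison and for the largest salt differences in each role. The probe pairs, the own-chromosome probes and cyclic loess were added after the data were seen. Promoter and gene tables are from RefSeq, build GRCm38.p6. Probe coordinates are mm9, per the file headers.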

Additional observations from a re-analysis of the deposited data

Results flagged for a closer look

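In 19 members the effect of added NaCl differed between cells with and without LPS by the test of the difference itself, the interaction term of the limma fit with Benjamini-Hochberg adjustment over all genes, in 3 arrays per group. In 18 of them the salt difference was lower with LPS. Over all genes tested, 18.8% were called lower and 17.4% higher in the interaction. The interactions on the log2 scale were -0.787 for Nop58, -0.644 for Rrp1b, -0.541 for Wdr43, -0.535 for Ddx21, -0.481 for Dkc1, -0.451 for Tsr1 and -0.401 for Gar1, with adjusted p-values from 5.72e-06 to 0.00412. They were -0.373 for Gnl3, -0.327 for Ncl, -0.315 for Utp20, -0.302 for Brix1, -0.265 for Bop1, -0.247 for Bysl and -0.241 for Pno1. They were -0.233 for Nip7, -0.22 for Nop56, -0.211 for Nop2 and -0.2 for Ebna1bp2. Polr1e alone lay above 0, at 0.193 (adjusted p = 0.0335). Under the 21 alternatives the call was lost in 14 for Gnl3, 13 for Bysl, 13 for Nop2, 12 for Polr1e, 10 for Pno1, 7 for Nip7, and 1 each for Nop56, Brix1 and Ebna1bp2. All these values rest on the HS + LPS arrays, so slide, scan day and group cannot be told apart in them.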

How the results depend on the processing

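The higher calls and the median for salt without LPS stayed within 1.5 times of the reported values and kept their direction under every alternative run. For salt with LPS the median was -0.1039 with normexp, -0.002803 with quantile normalization, -0.002917 with the deposited table and -0.05935 to -0.009255 without single arrays, and the members called higher were 8 with quantile normalization, 8 with the deposited table and 3 with the mean of a gene's probes. For LPS without added salt the median was -0.08209 with quantile normalization, -0.08204 with the deposited table, -0.1274 with the mean of probes and -0.009319 with cyclic loess, and leaving out arrays gave 8 to 12 members called lower, 8 without NS + LPS replicate 2. For LPS with added salt the median was -0.3032 with normexp, -0.4287 with the mean of probes and -0.1741 with cyclic loess, and -0.2544 to -0.1901 without single arrays. Members called higher there were 6 with quantile normalization, 6 with the deposited table and 7 with cyclic loess. For the interaction the median was -0.2474 with normexp, -0.1552 with quantile normalization, -0.1555 with the deposited table and -0.2493 to -0.1909 without single arrays. The single higher interaction call became 0 with normexp, 0 with no filter on dim probes, 0 with the mean of probes, 2 with the deposited table and 0 to 1 without single arrays, and the lower calls were 11 with no filter, where 24180 genes were tested. With the mean of probes the LPS differences without added salt turned to -0.3376 for Brix1, -0.2272 for Ebna1bp2 and -0.06421 for Ddx21, as their downstream probes entered the mean. With only the groups compared, 1 member pair was called lower with salt alone and 3 with salt under LPS, and leaving out arrays gave 1 to 2 and 3 to 4. Other causes were not tested. Same-numbered arrays had correlations of -0.20 to 0.12 once group means were removed (18 pairs, 2 over 0.1). These values do not settle whether the replicate numbers pair the samples. With the replicate block, salt without LPS had 24 members higher and 1 lower, and the higher interaction call became 0. Signal over background limits the low probes most, and 3 arrays per group limit the precision of every value.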
